A study of Sus scrofa with 12 samples.

Results

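The genes described here are the Ensembl genes that lie in pig chromosomal regions with loci for the water holding capacity of meat. They were taken from the authors' table of region features, which held 770 features. Every feature with an Ensembl gene ID was taken (329 genes), and 14 were then left out by symbol (PRKAG3, NR3C1, SMDT1 and members of certain large gene families), which left 315 genes. The other 441 region features carry HSMMG identifiers, for which the tables at hand give no gene. Of the 315 genes, 182 had a symbol and 133 are known here by ID alone.

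Muscle RNA was sequenced from 12 pigs (Sus scrofa), 6 labelled as having high drip and 6 low drip, with 3 females and 3 males at each level. The animals were 167 to 189 days old, and the labels name the tissue as muscle without saying which one. No breed, treatment or genotype is given, and each animal gave 1 library. Animals are numbered 1 to 6 within each drip group, in which 1 to 3 are female and 4 to 6 male.

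Drip loss is the fluid that seeps from meat after slaughter, and a high value means that the muscle holds water poorly. Acidification of the muscle after death, denaturation of its proteins and shrinkage of the myofibrils are known to force water out of the fibres. A quantitative trait locus is a stretch of chromosome in which inherited variants go with a trait. Every gene inside it is a positional candidate until the variant is known, and expression in the tissue and a difference between animals of unlike trait values are the usual first filters.

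Each library held 137166 to 199407 counts in the region table, 0.848% to 1.07% of the alignments listed in it. The 315 genes took 75.3% to 80.2% of those counts. Levels are given as region CPM, counts scaled to CPM over the counts in the tested region features after TMM scaling. They depend on gene length as well as on transcript number, so they are not ranked as abundances between genes. The muscle markers ACTA1, TNNC2 and PYGM summed to between 96470 and 127875 CPM in the 12 whole-genome tables, and the other 5 muscle markers looked for had no ID with that symbol. For 3 females (high drip 2, low drip 1 and low drip 2) the whole-genome table on record held another animal's counts, by its match to the region tables. For each animal, values from whole-genome tables are those of the table that matched its region table. The labels of the region tables are used here. Under those of the whole-genome records, high drip 2 would be a low drip animal and low drip 2 a high drip animal. The effect of this was looked at in 12 named genes for drip and 6 for the interaction. Of the values described here for those genes, the ones that it moves by over 1.5 times are given with it. For the other genes the values under those labels are not given, and their size or direction may change.

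Most of the positional candidates were read in muscle. Of the 315 genes, 206 had a count in all 12 animals and 71 in 1 to 11 animals, and 38 had none in any. A filter on low counts was passed by 196 genes (62.2%), 141 of them with a symbol, and these held 99.9% of the counts of all 315. Of all 770 region features, 485 passed the same filter, a similar share. The mean level was at least 100 CPM in 181 genes, at least 1000 CPM in 83 and at least 10000 CPM in 12, and the last 12 alone took 66.2% of the counts. The counts were thus concentrated in a few genes, while 179 genes had at least 10 counts in every animal.

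**Figure D1:**
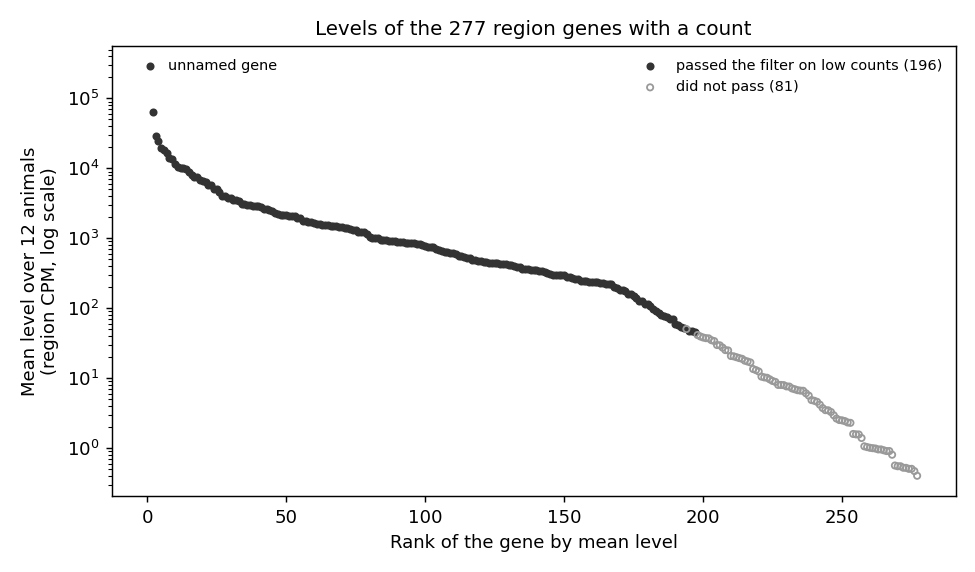
Mean level of the 277 genes with a count, in region CPM over 12 animals on a log axis, ordered by level. Filled points are the 196 genes that passed the filter on low counts and open points the 81 that did not. Only 12 genes lie at 10000 CPM or above.

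A gene with no symbol, ENSSSCG00000000084, took more reads than any other. It had 567435 counts over the 12 animals, 36.6% of the counts of the 315 genes and 25.02% to 34.3% of each library's region counts. Its level was 233754 to 401449 CPM in the high drip animals (median 283002) and 254407 to 348055 CPM in the low drip animals (median 263128). The ranges overlapped widely, and the 2 highest values belonged to high drip 3 and low drip 6. Its drip difference was 0.10 ± 0.13 on the log2 scale (high minus low, with the standard error of the fit).

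Well counted genes with a symbol had roles in energy metabolism, ubiquitination, translation and chromatin. OGDH, the first subunit of the 2-oxoglutarate dehydrogenase complex of the citrate cycle, lay at 23544 to 32780 CPM in the high drip animals (median 30702) and at 24763 to 37294 CPM in the low drip animals (median 27492). The drip groups overlapped almost fully, and the highest value was that of low drip 3. The ubiquitin ligase ARIH2 followed with 24410 ± 3735 CPM (mean ± SD, n = 12), and ARHGAP35, which switches off the GTPase RHOA, with 19720 ± 3457 CPM. ST13, a cochaperone of the heat shock protein HSP70, had 18321 ± 2827 CPM, and EIF3L, a subunit of translation initiation factor eIF3, 16783 ± 1753 CPM. The RNA binding protein SNU13, which serves in both splicing and small nucleolar particles, was at 14151 ± 1167 CPM, and the histone variant H2AZ2 at 11715 ± 1985 CPM. DDB1, an adaptor of the CUL4 ubiquitin ligase that also recognises damaged DNA, had 10171 ± 843 CPM. PLCD4, a phospholipase C that releases inositol trisphosphate, had 9658 ± 2215 CPM.

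At the other end, 38 genes had no count in any library, 3 of them with a symbol. These 3 were the cilia and flagella gene CFAP65, the tubulin modifying enzyme gene TTLL6 and the pepsinogen gene PGA5. In a library of this size a count of 0 allows a level of up to 14.4 to 20.4 CPM (3 counts), and this covers counting error only. The receptor genes MCHR1 and GALR3, known from the brain, each had 5 counts in all 12 animals together. The signalling genes WNT10A and DKK4 had 2 and 3, the thrombin receptor gene F2RL3 1, and the sterol transporter gene NPC1L1 2. The microRNA gene ssc-mir-425 had 9 counts and the small nucleolar RNA gene SNORA9 had 76. The library preparation was for longer RNA, so these counts do not measure the mature small RNAs. The genes named in this paragraph were picked after their counts were seen, as examples of low levels.

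The region table did not hold the full count of every gene. For 50 of the 315 genes the count differed from that in the whole-genome table of the same library. In 22 of them the region table held more, by at most 16 counts in all, and in 28 it held fewer. It held under 95% of the count in 17 genes with at least 50 counts. FUBP1, which binds DNA upstream of MYC, had 765 of 4294 counts (17.8%), and CPEB3, a regulator of polyadenylation, had 16.2%. TIAM2 had 48.7%, TFB1M 54.5%, FUT8 54.5%, STK17A 58.4%, CPSF7 61.8% and USE1 64.9%. The unnamed ENSSSCG00000013870 had 0 of 611 counts in the region table and so is silent here although its RNA was counted in the whole genome. The levels of these 17 genes are therefore lower bounds on their reads in muscle, and whether they lie at the edge of a region was not tested.

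By their neighbours in the RefSeq annotation of assembly Sscrofa11.1, which is not the build of the files, 163 genes could be placed by symbol. Neighbourhoods of at least 5 members, with each member at most 10 places from the next in the order of protein-coding genes, numbered 12 and held 137 genes. The largest ran from SNU13 to CYTH4 with 47 genes, 34 of them past the filter, and held ST13, EIF3L, EP300, XRCC6, MAFF and TNRC6B. It carried 21.5% of the counts of the 315 genes. The next ran from IGFBP1 to GLI3 with 19 genes, among them OGDH, TBRG4 and CCM2. In the neighbourhood from PFKFB4 to KLHDC8B all 11 genes passed the filter, and in that from OTUD7B to BOLA1 all 5 did.

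Levels were steady between animals in most of the genes. The coefficient of variation over 12 animals (CV, the SD as a percent of the mean) had a median of 19.0% in the 196 tested genes, with quartiles at 14.1% and 27.9%. Over all 485 tested region features the median was 26.8%. The genes described here hold most of the region counts, so the other features have fewer counts on average. These medians were not adjusted for depth. In the 83 genes at 1000 CPM or more the median was 15.3%. Within the high drip animals the median CV of the 196 genes was 18.8%, and within the low drip animals 19.2%.

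The steadiest gene was XRCC6, the Ku70 subunit that binds broken DNA ends, at 3715 ± 180 CPM. Its CV of 4.84% was close to the 4.04% that counting error alone gives at its depth. SP2, a transcription factor of the Sp family, had a CV of 6.32% where counting error alone gives 8.96%. SIN3B, a scaffold of histone deacetylase complexes, had 6.86%, TOMM22, a receptor of mitochondrial protein import, 7.06%, and CNOT9, a subunit of the CCR4-NOT deadenylase, 7.35%.

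**Figure D2:**
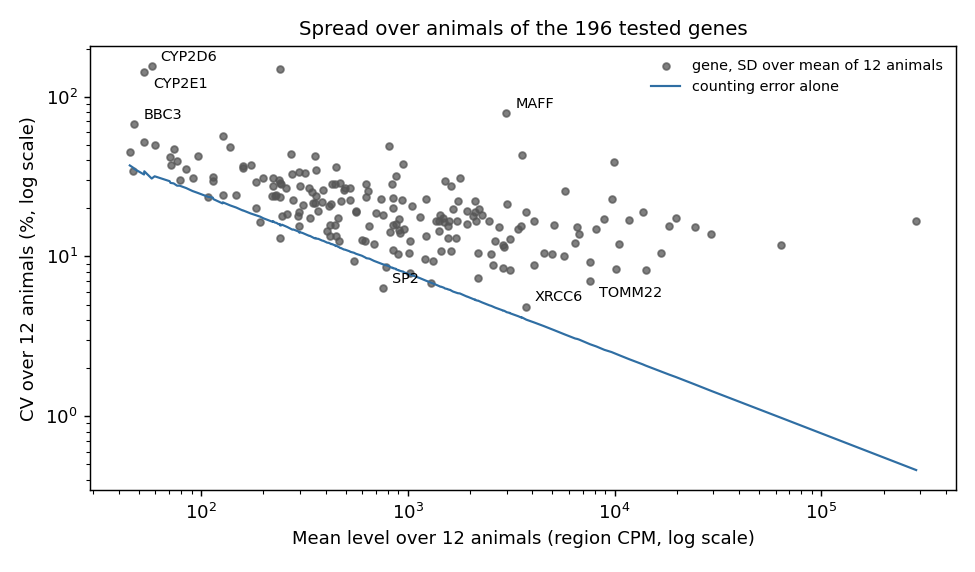
CV over 12 animals in percent against mean region CPM for the 196 tested genes, both axes logarithmic. The line is the CV that counting error alone gives. XRCC6 with 4.84% lies near the line, and MAFF with 79.0% lies far above it.

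The widest spread among well counted genes was that of MAFF, a small MAF transcription factor that pairs with stress and antioxidant regulators. Its counts ran from 90 to 1495 per library. In the high drip animals it lay at 757 to 8304 CPM (median 1407) and in the low drip animals at 544 to 5147 CPM (median 3579). The highest value was that of high drip 4, and low drip 2, 5 and 6 all lay above 4000 CPM. The CV was 79.0% where counting error gives 4.50%, and the drip difference was -0.21 ± 0.60 on the log2 scale, so the spread within both groups far exceeded the difference between them. BBC3, a promoter of apoptosis induced by p53, had a CV of 67.1%, but with 2 to 20 counts per library counting error alone gives 35.4%. PLD4, a member of the phospholipase D family, had 57.1% with 6 to 60 counts.

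CYP2D6 and CYP2E1, cytochromes that are high in liver, had the largest CVs of all tested genes with a symbol, at 155% and 143%. CYP2E1 had 12, 51, 15, 5, 1 and 0 counts in high drip 1 to 6 and 0, 0, 0, 0, 21 and 8 in low drip 1 to 6. CYP2D6 had 6, 67, 3, 11, 2 and 0 counts against 1, 7, 1, 2, 19 and 8. Both genes were highest in high drip 2 and, among the low drip animals, in low drip 5. The CYP2E1 counts went with markers of another tissue. ALB, the serum albumin gene, was taken from the matched whole-genome tables. It was above 10 CPM in high drip 1 to 4 and low drip 5 and 6. In the other 6 animals it was at most 2.49 CPM. CYP2D6 followed ALB less closely, with 46.0 CPM in low drip 2, where ALB was at 0.756 CPM. That was above the CYP2D6 level of high drip 1 (37.9 CPM) and high drip 3 (20.2 CPM). All 7 liver markers looked for had an ID. CYP2E1 is one of them, and the sum of the other 6 ran from 1.08 to 495 CPM in the high drip and from 0.436 to 79.2 CPM in the low drip animals. APOC3 and AHSG were at 0 in 3 animals each and AMBP in 5. IGFBP1 and SERPINA6, which the liver also secretes, reached 14 and 13 counts in high drip 2 and at most 3 in any other animal. The part of liver RNA in these counts was not tested, and in bulk RNA more cells of a type and more RNA per cell cannot be told apart. CYP27A1, a sterol hydroxylase gene of the liver list, was counted in all 12 animals, at 849 ± 170 CPM.

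A pair of genes was present in some animals and all but missing in the rest. ENSSSCG00000021119 had 133 counts in high drip 2 and 112, 102 and 142 in low drip 2, 4 and 5, and 0 or 1 in the other 8 animals. The 4 animals lay at 616 to 886 CPM, and the matched whole-genome tables gave the same counts. They included both sexes and both drip levels, and libraries with and without ALB above 10 CPM. ENSSSCG00000030298 had 64 counts (425 CPM) in low drip 3 and 0 or 1 in the other 11 animals. These 2 were the only ones of 183 genes with a highest count of at least 30 that showed such a gap, and the other region features, 371 with such a count in all, held no further one. The rule for the gap was set after the values were seen.

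**Figure D3:**
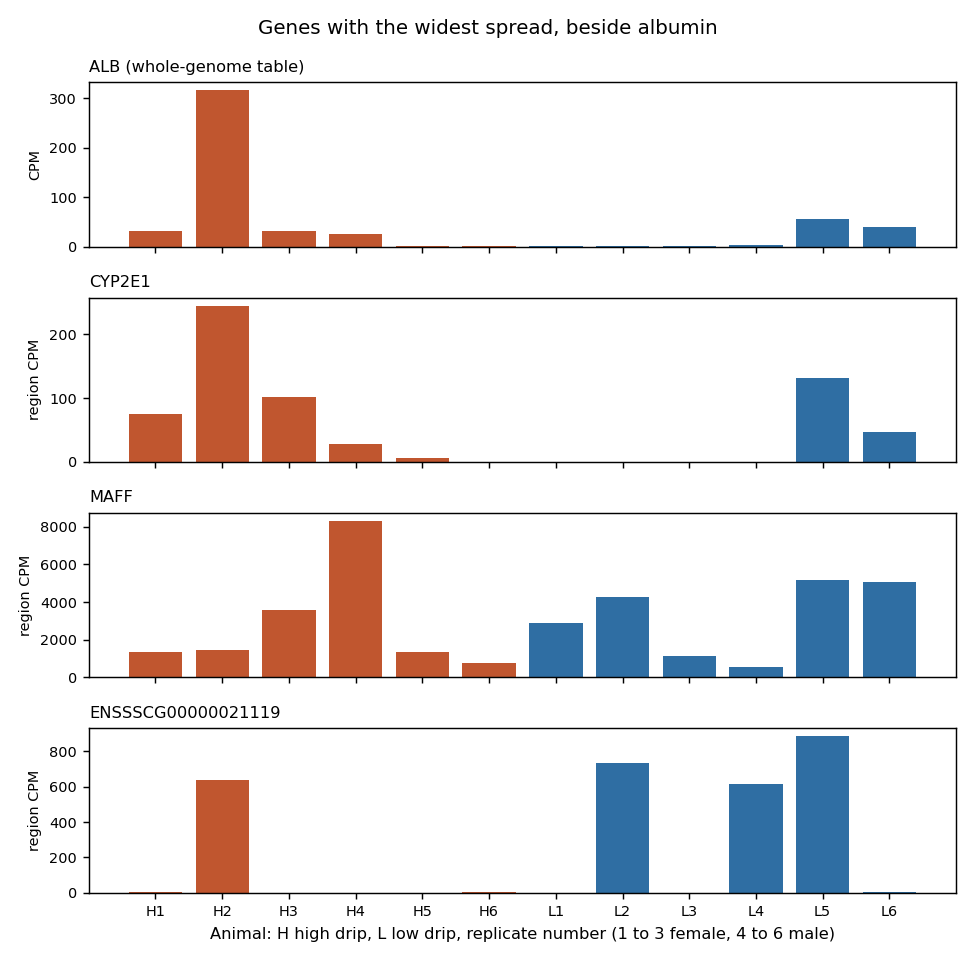
Region CPM in each of the 12 animals for CYP2E1, MAFF and ENSSSCG00000021119, with ALB from the matched whole-genome tables in CPM. H1 to H6 are high drip 1 to 6 and L1 to L6 low drip 1 to 6, with 1 to 3 female and 4 to 6 male. ENSSSCG00000021119 is at 616 to 886 CPM in 4 animals and near 0 in the other 8.

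The main comparison asked whether any positional candidate differed in muscle between high and low drip animals. No gene passed the test: 0 of 196 had an adjusted p under 0.05 in edgeR's quasi-likelihood test with sex as a term, with Benjamini-Hochberg adjustment over all 485 region features (0.0% called, smallest adjusted p = 0.988). Of the 196 genes, 2 had an unadjusted p under 0.05, against 2.89% of all region features. DESeq2 also gave 0 calls (0.0%), with 3 genes at such a p against 1.86% of all region features, and limma voom gave 0 (0.0%), with 1 gene against 1.24%. The high drip level was above the low in 97 genes and below in 99, with a median log2 difference of -0.003, and over all region features the split was 236 to 249 with a median of -0.006. In 0 of the 196 genes were the drip groups free of overlap, as in 0.0% of all region features in either direction.

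The differences were also small. Of the 196 genes, 193 differed by less than 1.5-fold, and 464 of the 485 region features did. The 3 others were CYP2D6, CYP2E1 and ENSSSCG00000021119, whose counts are given above. The 95% interval of the difference, not adjusted for the number of genes, lay within 2-fold either way for 184 of the 196 genes and within 1.5-fold for 137. A larger difference lay outside this interval in those genes. In the matched whole-genome tables the 3 adipocyte markers PLIN1, CIDEC and FASN summed to 20.7 to 74.0 CPM (median 36.7) in the high drip and 43.2 to 109 CPM (median 63.2) in the low drip animals. The leukocyte markers CD5, CD6 and CTSS, 3 of 5 looked for, summed to 15.4 to 50.8 CPM against 16.9 to 42.9 CPM. Their part in the drip differences was not tested.

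**Figure D4:**
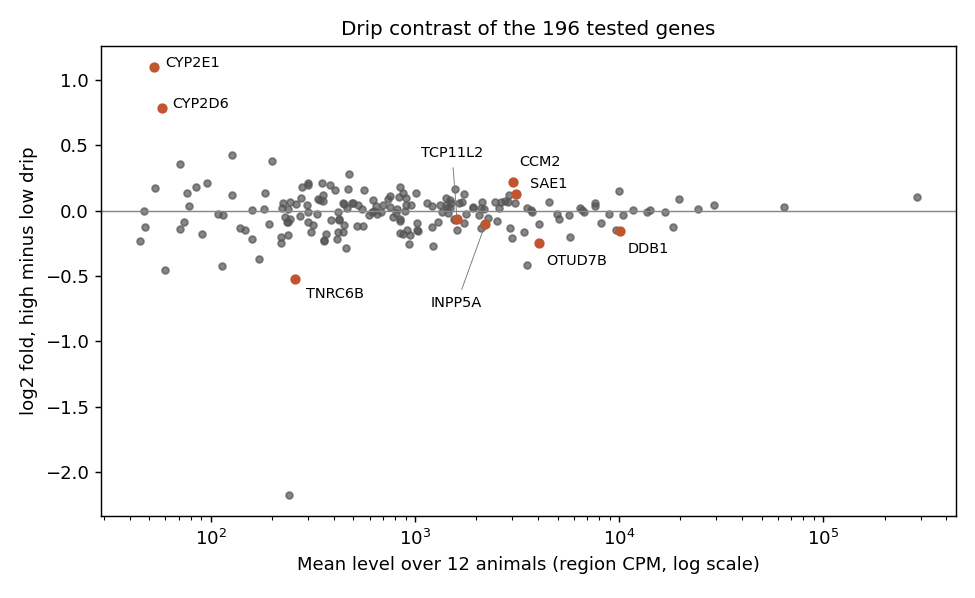
Log2 difference between high and low drip (high minus low, edgeR fit with sex) against mean region CPM on a log axis for the 196 tested genes. The 3 genes beyond 1.5-fold are CYP2D6, CYP2E1 and ENSSSCG00000021119, and no gene passed the adjusted threshold.

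TNRC6B, which joins Argonaute proteins when microRNAs silence their targets, had the smallest p of the genes with a symbol. In high drip animals 1 to 6 it was at 120, 216, 263, 278, 259 and 135 CPM, and in low drip animals 1 to 6 at 295, 303, 326, 290, 268 and 348 CPM. High drip 1 and 6 were far below all others, while high drip 4 lay above the lowest low drip animal, so the groups overlapped. The log2 difference was -0.53 ± 0.22 (95% interval -0.999 to -0.056, edgeR unadjusted p = 0.0311, adjusted p = 0.988). The gene had only 19 to 59 counts per library, and under the drip labels of the whole-genome records the difference was -0.36.

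OTUD7B, a deubiquitinase that restrains NF-kappa-B signalling, was the other gene with an unadjusted p under 0.05. It lay at 3444 to 4071 CPM in the high drip animals (median 3642) and at 3501 to 5478 CPM in the low drip animals (median 4440). Low drip 2, 4, 5 and 6 lay above every high drip animal, although low drip 4 did so by less than 2 CPM, and low drip 1 and 3 lay among them. The log2 difference was -0.25 ± 0.12 (edgeR unadjusted p = 0.0475, adjusted p = 0.988). It was -0.10 under the labels of the whole-genome records, -0.11 in females alone and -0.39 in males alone.

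DDB1 lay at 8487 to 10367 CPM in the high drip animals (median 9685) and at 9905 to 11346 CPM in the low drip animals (median 10794). Low drip 1, 2, 3 and 6 were above every high drip animal. Its log2 difference was -0.16 ± 0.08 (unadjusted p = 0.0627 in edgeR, adjusted p = 0.988), and -0.07 under the labels of the whole-genome records.

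Among the other genes with the smallest p for drip, the 6 given here each differed by less than 0.25 on the log2 scale, and their groups overlapped. CPSF7, which helps choose where transcripts are cut and polyadenylated, had -0.18 ± 0.12, with 824 ± 154 CPM at high and 927 ± 112 CPM at low drip. IMPDH2, which makes guanine nucleotides, had -0.13 ± 0.10, and WDR45B, an autophagy protein, -0.15 ± 0.12. Under the labels of the whole-genome records CPSF7 had -0.09 and IMPDH2 -0.03, and WDR45B had -0.10 without low drip 2. On the matched whole-genome counts CPSF7 had -0.13. On the positive side were SAE1, a subunit of the enzyme that activates SUMO, with 0.13 ± 0.09, CCM2, a scaffold protein of endothelial junctions, with 0.22 ± 0.17, and the nuclear receptor NR2F6 with 0.17 ± 0.14. Without low drip 1, CCM2 had 0.10 and NR2F6 0.09, and CCM2 had 0.12 without high drip 4 and 0.14 under the labels of the whole-genome records. In the 9 animals without a table conflict SAE1 had 0.08, CCM2 0.07 and NR2F6 0.07. Each had an edgeR adjusted p of 0.988. INPP5A and TCP11L2, described below for their difference between the sexes, had drip differences of -0.11 ± 0.16 and -0.06 ± 0.23. Under the labels of the whole-genome records both turned positive (0.15 and 0.07). INPP5A had -0.005 without low drip 2, and TCP11L2 turned positive without high drip 2, high drip 5 or low drip 4 (0.02 to 0.03).

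Grouped by function, none of the lists held a called gene. Energy metabolism and redox had 9 genes, all tested, with 7 higher and 2 lower in high drip animals and a median log2 difference of 0.04. OGDH had 0.04 ± 0.12 and ADSL, an enzyme of purine synthesis, 0.02 ± 0.11. RNA silencing, processing and translation had 10 genes, 9 of them tested, with 4 higher and 5 lower. EIF3L had -0.01 ± 0.10, DALRD3 0.02 ± 0.10 and CNOT9 0.02 ± 0.10, while TNRC6B was lowest. The median of that list was -0.01, close to that of all region features.

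Inositol phosphate, G protein and kinase signalling had 6 genes, of which 2 were higher and 4 lower with a median of -0.08. ARHGAP35 had 0.09 ± 0.14, PLCD4 -0.15 ± 0.17 and PRKAR2A, a regulatory subunit of protein kinase A, -0.06 ± 0.12. Chromatin and transcription had 7 genes, 5 higher and 2 lower, with 0.01 ± 0.14 for H2AZ2, -0.01 ± 0.13 for the acetyltransferase EP300 and 0.02 ± 0.18 for AEBP1. DNA repair and replication had 5 genes, 2 higher and 3 lower, among them XRCC6 with 0.01 ± 0.08 and TUBGCP2, a centrosome protein, with -0.03 ± 0.10. Ubiquitin and SUMO had 6 genes, 4 higher and 2 lower, and ARIH2 had 0.01 ± 0.12. Membrane traffic, folding and autophagy had 7 genes, 3 higher and 4 lower, with -0.12 ± 0.12 for ST13, -0.01 ± 0.16 for NUDCD3 and 0.06 ± 0.09 for TMED4.

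Some lists had few members that were found by symbol, and the 133 genes without a symbol could not be placed in any list. Mitochondrial gene expression had TBRG4 with 0.12 ± 0.11 and TMEM160 with 0.21 ± 0.27. Both were highest in high drip 2, at 3678 and 534 CPM, where the next high drip animals had 3205 and 314 CPM. That animal would be low drip under the labels of the whole-genome records, and the differences of these genes under those labels are not given. Muscle structure had CELSR3 alone, an adhesion receptor gene at 96.2 ± 40.7 CPM with 0.21 ± 0.37. The leukocyte list had MYO1G with -0.03 ± 0.26 and the connective tissue list P4HTM with -0.01 ± 0.17. No gene of the contractile apparatus from these lists was among the 182 genes with a symbol.

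No neighbourhood had all its tested genes on the same side. From SNU13 to CYTH4, 19 of 34 tested genes were higher and 15 lower in high drip animals, with a median of 0.01. From IGFBP1 to GLI3 it was 11 higher and 6 lower (median 0.04), and from PFKFB4 to KLHDC8B 7 higher and 4 lower (0.01). From OTUD7B to BOLA1 it was 1 higher and 4 lower (-0.12). The medians of the other 8 lay between -0.08 and 0.07, and no neighbourhood held a called gene.

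A further comparison asked whether drip went with the same difference in females and males. The interaction, taken as the male drip difference minus the female one, was called for 0 of 196 genes in edgeR (0.0% called) and had an unadjusted p under 0.05 for 6, against 5.57% of all region features. DESeq2 called 1 gene (0.412% of all region features) and gave 6 at an unadjusted p under 0.05 (4.33%), and limma voom called 0 (0.0%) and gave 5 (4.54%). It was positive in 77 genes and negative in 119, with a median of -0.07. That split depends on the scaling, with 128 positive and 68 negative under library totals alone and 140 and 54 when scaled to all alignments. The median of all region features moved from 0.01 to 0.18 and 0.23 under these scalings. Values below are relative to TMM, and the 3 genes described next kept their direction under every scaling tried. How many region features separate by drip within a single sex was not counted. The genes with a symbol described below had the smallest p of the interaction, so such separation in them is no added support.

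INPP5A, the phosphatase that ends the inositol trisphosphate calcium signal, was at 1650, 1962 and 2036 CPM in high drip females and at 2294, 3137 and 2352 CPM in low drip females. In males it was at 2888, 2438 and 1789 CPM with high and at 2018, 1915 and 2047 CPM with low drip. All high drip females lay below all low drip females, while the males overlapped, with high drip 4 and 5 on top. The interaction was 0.71 ± 0.27 (edgeR unadjusted p = 0.0202, adjusted p = 0.868). It was 0.20 under the labels of the whole-genome records, in which high drip 2 and low drip 2 change places.

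TCP11L2 went the other way. High drip females were at 2446, 1072 and 1901 CPM and low drip females at 1523, 1493 and 996 CPM. High drip males were at 1416, 1172 and 1408 CPM and low drip males at 2206, 1791 and 1870 CPM. Here the males did not overlap and the females did, and the interaction was -0.98 ± 0.37 (edgeR unadjusted p = 0.0208, adjusted p = 0.868).

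PMM1, a phosphomannomutase of sugar nucleotide supply, had 37 to 77 counts per library. High drip females were at 316, 370 and 297 CPM and low drip females at 295, 434 and 505 CPM. High drip males were at 428, 375 and 393 CPM and low drip males at 332, 231 and 295 CPM. The males did not overlap, the females did, and the interaction was 0.80 ± 0.34 (edgeR adjusted p = 0.868). No gene of the 196 was free of overlap in both sexes with opposite directions. That pattern was found in 0.619% of region features for high drip below low in females and above it in males, and in 0.0% for the reverse.

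**Figure D5:**
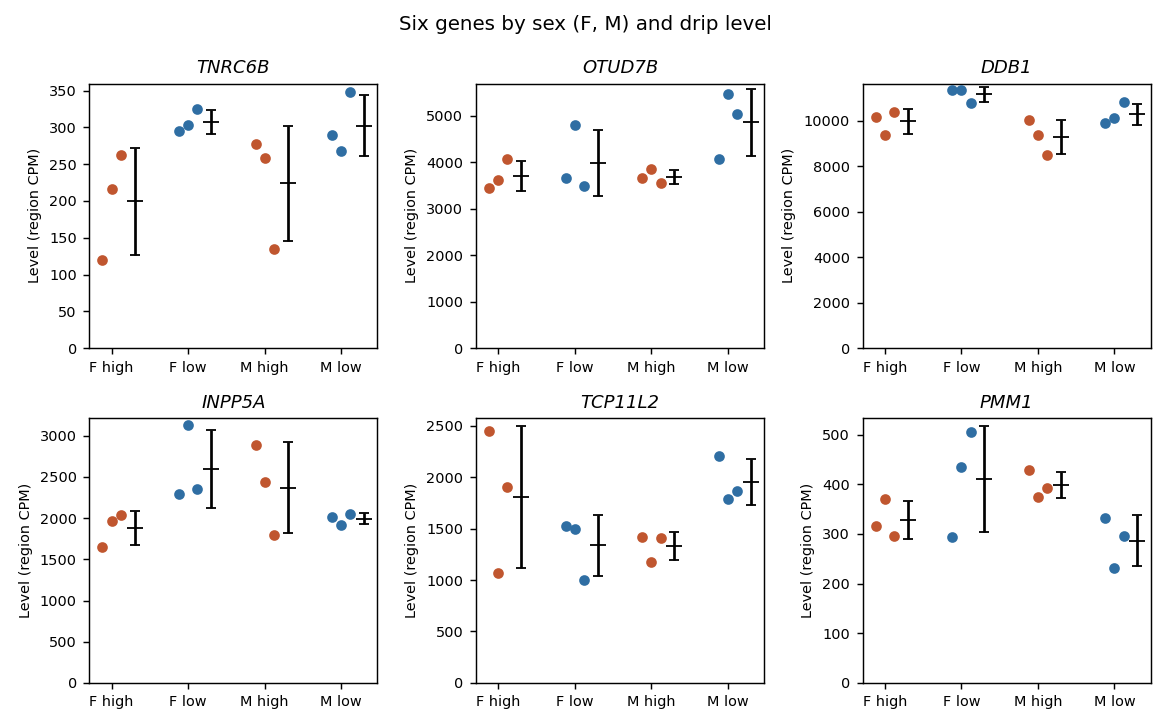
Region CPM of TNRC6B, OTUD7B, DDB1, INPP5A, TCP11L2 and PMM1 in each animal, by sex and drip level, with the mean and SD of each group of 3. For INPP5A the high drip females lie below the low drip females, and for TCP11L2 the high drip males lie below the low drip males. How many region features separate within a single sex was not counted.

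H2AZ2 had an interaction of -0.52 ± 0.24, ST13 -0.43 ± 0.22 and TXNDC11, a thioredoxin domain protein, -0.56 ± 0.32, with edgeR adjusted p of at least 0.874. Scaled to all alignments they were -0.27, -0.19 and -0.31. H2AZ2 had -0.30 without high drip 3, and TXNDC11 had -0.37 without low drip 6 and 0.01 with the ALB split as a term. The unnamed ENSSSCG00000000084 had -0.53 ± 0.20 (unadjusted p = 0.0235 in edgeR, adjusted p = 0.868). It was at 329273, 286371 and 401449 CPM in high drip females, all above the low drip females at 256826 to 270748 CPM. CYP2E1 had the smallest p of the interaction among the genes with a symbol. Its counts were 12, 51 and 15 in high and 0 in each of the low drip females, and 5, 1 and 0 against 0, 21 and 8 in the males. Its adjusted p was 0.202 in edgeR, 0.00369 in DESeq2 0.989 in edgeR with the ALB split as a term and 0.967 under the labels of the whole-genome records. All high drip females and no low drip female had ALB above 10 CPM, against 1 high and 2 low drip males. CYP2D6 had an edgeR adjusted p of 0.872.

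Males and females were compared with drip as a term. No gene passed in edgeR (0 of 196, 0.0% called), and 7 had an unadjusted p under 0.05, against 5.15% of all region features. DESeq2 gave 0 calls and 5 genes at such a p (4.74%), and limma voom 0 calls and 6 genes (4.95%). Males were above females in 89 genes and below in 107, but in 115 and 81 under library totals alone.

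CYB561A3, a cytochrome b561 that reduces iron in lysosomes, was the one gene whose sexes did not overlap, and 0.206% of region features lay lower in all males. It was at 274 to 348 CPM in 6 females (303 ± 29.1) and at 199 to 233 CPM in 6 males (220 ± 12.8). The difference, male minus female, was -0.46 ± 0.14 (edgeR unadjusted p = 0.00479, adjusted p = 0.572), with 33 to 57 counts per library. Leaving out any 1 animal gave -0.50 to -0.42.

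Lower in males by smaller amounts, with an edgeR adjusted p of 0.794 each, were USE1, a SNARE of the endoplasmic reticulum (-0.26 ± 0.11), SYNGR1, a vesicle protein (-0.27 ± 0.12), and CPSF7 (-0.27 ± 0.12). The region table held 61.8% of the CPSF7 counts, and on the matched whole-genome counts CPSF7 had -0.18. The zinc finger gene ZC3H4 had -0.37 ± 0.17 and ADCY1, an adenylyl cyclase, -0.52 ± 0.25. RSL24D1, a ribosome assembly factor, had 0.30 ± 0.13, with 1847 ± 294 CPM in females and 2278 ± 317 CPM in males. SUN2, which ties the nuclear envelope to the cytoskeleton, had 0.35 ± 0.17, with 5024 ± 862 against 6440 ± 1684 CPM. It had 0.23 without high drip 4 and 0.17 in the 9 animals without a table conflict, where ZC3H4 had -0.23.

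The 5 genes TNRC6B, OTUD7B, INPP5A, TCP11L2 and DDB1 were set beside the other tested genes by Pearson's r of log2 CPM over the 12 animals, which share the scaling within each library, and the values are given as a description. TNRC6B was most like INPP5A (r = 0.617) and DDB1 (0.617). OTUD7B was most like SIN3B (0.708) and PRKAR2A (0.703). The genes most like INPP5A were AEBP1 (0.721), ZHX2 (0.683) and TNRC6B. TCP11L2 was most like ST13 (0.695), H2AZ2 (0.524) and RSL24D1 (0.511), and DDB1 most like GTPBP1 (0.650), IMPDH2 (0.646) and CPSF7 (0.641). The lowest values were those of C7orf25 with INPP5A (-0.749) and VPS26B with OTUD7B (-0.725), which are as large in size as the highest.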

How the data were processed

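Muscle RNA of 12 pigs was extracted with Trizol and made into TruSeq v2 libraries, per the labels' protocols. The authors deposited raw counts per feature in 2 tables per animal, and the region table was used here. TopHat2 2.0.3, Bowtie 0.12.7.0, HTSeq and the build Sscrofa10.2 are named in the submitters' processing notes, while the annotation release, strand setting and counting options are not given in the sources used here. Reads of overlapping or antisense genes may thus be counted together, and copies of a gene may share reads. HTSeq entries that name no gene were left out of library sizes; alignments with no feature made up 83.5% to 86.2% of each region table, since most reads fall outside the regions.

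Counts of all region features were fitted in R 4.3.3 with edgeR 4.0.16 (TMM, filterByExpr on the 4 groups of sex and drip, 485 features kept, quasi-likelihood F-test, two-sided, Benjamini-Hochberg over all 485, threshold 0.05). Drip was fitted with sex, the interaction with sex, drip and their product. DESeq2 1.42.0 and limma 3.58.1 (voom) were alternatives, as were other scalings, no filter, age, the ALB split, leaving out each animal, and counts from the matching whole-genome tables, the last chosen after seeing the data. The steps were tested on simulated data. P-values set each difference against the spread between these animals. Depth was 137166 to 199407 counts per library, and floors cover counting error only.

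The genes and lists were chosen with earlier results of these data known. Named were 5 given genes (TNRC6B, OTUD7B, INPP5A, TCP11L2, DDB1), those with the smallest p for drip (10), interaction (8) and sex (8), the 10 highest levels, the 5 highest and 5 lowest CVs, and the 3 highest of each list, all with symbols; some genes the rule takes are not reported here and were not replaced. Symbols were looked up by exact gene ID.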

Additional observations from a re-analysis of the deposited data

Results flagged for a closer look

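In groups of 6 animals the highest or lowest value was compared with its nearest neighbour, over 104 groups of 52 named genes. A value stood apart in 10 of them, and chance alone gives about 1 in 20 groups. The genes include those named for a high CV (CYP2E1, CYP2D6 and MAFF among the 10) or a small p, so that rate is not a fair measure here. In the high drip animals these were WDR45B at 1101 CPM (nearest 845), CYP2D6 at 322.1 CPM (nearest 61.1) and TMEM160 at 533.7 CPM (nearest 314), all in high drip 2, which is 1 of the 3 females whose tables conflict and had the highest ALB. High drip 4 stood apart in SUN2 at 7910 CPM (nearest 5116) and in MAFF at 8304 CPM (nearest 3573), and high drip 1 in PLCD4 at 14250 CPM (nearest 9396).

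In the low drip animals, low drip 2 stood apart in INPP5A at 3137 CPM (nearest 2352), and low drip 5 in CYP2E1 at 131 CPM (nearest 47.2) and CYP2D6 at 118.5 CPM (nearest 47.2). Low drip 6 stood apart in SNU13 at 16290 CPM (nearest 14230).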

How the results depend on the processing

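No gene was called for drip under any of the 27 alternatives run, and the count at an unadjusted p under 0.05 (2) lay between 0 and 4 without 1 animal and between 1 and 6 otherwise. For the interaction 1 gene, CYP2E1, passed in DESeq2 and without low drip 4 (adjusted p = 0.0405 in edgeR), so leaving out 1 animal gave 0 to 1 calls; at an unadjusted p the count (6) ran from 4 to 13. For sex 1 gene, ENSSSCG00000030298, passed in the 9 animals without a table conflict, on the counts of low drip 3 alone; the count at an unadjusted p (7) ran from 3 to 10. Over named genes, the drip difference kept its direction in 316 of 324 refits of 12 genes, the interaction in 143 of 144 of 6 genes and the sex difference in 200 of 200 of 8 genes. Most of these genes were named for a small p in the same animals. The refits share most of those animals, so kept directions lend the differences no support. INPP5A reversed for drip in the 9 animals (0.0484), under the labels of the whole-genome records (0.1486) and in males alone (0.2582). TCP11L2 reversed under those labels (0.0725), in females alone (0.4248) and without high drip 2 (0.0165), high drip 5 (0.0346) or low drip 4 (0.0288), with a range of -0.24 to 0.0346 without 1 animal. TXNDC11 reversed for the interaction with the ALB split as a term (0.0051). The cause was not tested. The median CV was 20.7% under library totals. No paired analysis was possible because the labels give no replicate numbers, and the numbers 1 to 6 were given in accession order and tie no animal of one drip group to one of the other.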
